A study of Mus musculus with 4 samples.

Results

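Imprinted genes were followed by RNA sequencing in C2C12 cells, an established line of mouse myoblasts that divide in growth medium and can be induced to form myotubes. The members were 36 mouse genes known to be imprinted, taken by symbol from a fixed list, out of 51826 genes listed in the count table, and all 36 were found there. The cells were kept in growth medium for 6 h with vehicle (2 libraries) or with added GDF10 protein, a growth factor of the TGF-beta superfamily (2 libraries), and the labels call the 2 libraries of a group biological replicates. The dose of GDF10 is not given in the sources used here, no genetic change is named for either group, and the extraction label speaks of longissimus dorsi muscle although the other labels give the cell line.

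Imprinted genes are transcribed mainly from 1 parental copy, the maternal or the paternal one, and they lie in domains whose members share a control region methylated on 1 parental copy. Many domains pair protein-coding genes with a long noncoding RNA made from the opposite parental copy, such as Airn beside Igf2r or Kcnq1ot1 beside Cdkn1c. As a class they are known for effects on fetal growth, IGF signalling, placenta and brain, and several are known in muscle precursors, H19 and Peg3 among them. The counts are per gene and do not separate the parental copies, so they give the level of a gene and not whether it was imprinted in these cells. For several genes, Copg2, Trappc9, Inpp5f and Grb10 among them, the known imprinting also depends on tissue or transcript.

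Total counts ran from 29641165 to 35597310 per library. A gene with 0 counts can have stood at up to 0.0839 to 0.101 CPM, depending on the library, which is the limit that 3 counts set and covers counting error only. CPM are counts scaled to the size of each library with TMM factors. Of the myoblast markers, Des averaged 1018 CPM, Itga7 657, Cdh15 149, Myod1 55.7 and Myf5 24.5, while Pax7, the satellite cell factor, had 0 counts in all 4 libraries. The differentiation factor Myog averaged 27.9 CPM, Myh3 15.6 and Ckm 4.88, while the mature fast myosin gene Myh4 had 4, 0, 0 and 0 counts. Of the epithelial markers Krt8 averaged 5.03 CPM and Epcam had 0 counts in all. Of the adipocyte markers Fabp4 averaged 2.81 CPM and Adipoq had 0 counts in all. The fibroblast genes Col1a1, Pdgfra and Dcn averaged 951, 61.1 and 32.0 CPM.

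Sequences are shown here for the RNA with the highest level and for start regions of 3 domains that differ in level, all from RefSeq on build GRCm38.p6, which has the coordinates of mm10. The H19 transcript carries the hairpin of miR-675 in its exonic sequence, and its 2 mature forms are given with the seed, bases 2 to 8, in capitals. The hairpin gene Mir675, annotated apart from H19, was listed at 1 count in each library, and mature miRNAs cannot be read from these counts.
miR-675-5p (chr7:142577112-142577133, minus strand): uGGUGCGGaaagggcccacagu
miR-675-3p (chr7:142577078-142577099, minus strand): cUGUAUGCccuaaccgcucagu

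The next 3 begin with the 250 bases before the start of Meg3, which had almost no counts. Then come the 250 before the start of Airn, which lies in an intron of Igf2r. Last are the 146 bases between the divergent starts of Peg3 and Usp29 in the GENCODE annotation. The GENCODE starts of Peg3 and Usp29 differ by some bases from those of the start windows described below. Capitals mark CG, the dinucleotide that carries DNA methylation in mammals.
Meg3 (chr12:109540746-109540995, plus strand): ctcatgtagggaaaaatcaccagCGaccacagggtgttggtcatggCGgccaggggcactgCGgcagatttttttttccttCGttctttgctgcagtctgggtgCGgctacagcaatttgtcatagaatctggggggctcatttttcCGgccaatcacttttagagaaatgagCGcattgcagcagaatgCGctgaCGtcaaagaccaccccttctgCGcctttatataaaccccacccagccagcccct
Airn (chr17:12741061-12741310, plus strand): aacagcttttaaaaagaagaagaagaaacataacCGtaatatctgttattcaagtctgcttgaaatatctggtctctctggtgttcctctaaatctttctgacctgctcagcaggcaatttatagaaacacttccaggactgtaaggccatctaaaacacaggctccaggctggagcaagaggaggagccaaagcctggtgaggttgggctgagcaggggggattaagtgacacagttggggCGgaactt
Peg3 to Usp29 (chr7:6730432-6730577, minus strand): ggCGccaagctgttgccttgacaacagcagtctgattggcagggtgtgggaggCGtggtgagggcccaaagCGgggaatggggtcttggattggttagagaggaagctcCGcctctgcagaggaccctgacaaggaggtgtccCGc

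CG occurred 10 times in the Meg3 stretch, 2 times in that of Airn and 5 times between Peg3 and Usp29. The Meg3 stretch also holds TGACGTCA, the palindromic motif known to bind CREB family factors, 57 bases before the start. It was searched in the 250 bases before each annotated start. It reads the same on both strands and contains a CG, and 1.55% of 32851 such stretches hold it, among them also 1 each of Peg3 and Zdbf2. Start windows of 300 bases were at hand for 28 of the 36 genes. With at least 50% GC and a CG ratio, observed over expected, of at least 0.6, 15 of the 28 had a CG-rich window, 8 of the 15 genes tested and 7 of the 13 not tested. Some genes have several windows, and counted by window 19 of 40, or 47.5%, were CG-rich, beside 33.5% of all windows. A match is a description of these letters, and methylation was not measured.

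The imprinted genes ran from clear counts through low ones to none. A mean of at least 1 CPM was reached by 20 of the 36, and 22 had enough counts for the test of GDF10 against vehicle. Another 9 had 0 counts in all 4 libraries, Meg3 had 1 count in all, and Ndn, Asb4, Nap1l5 and Slc22a18 had 8, 15, 32 and 45 counts over the 4 libraries. For Nap1l5, a retrogene of a nucleosome assembly protein, these were 6, 10, 9 and 7 counts. Of the 29 protein-coding members 24.1% had no count, beside 28.6% of the 21793 protein-coding genes in the table, and 55.2% against 53.5% reached 1 CPM. Of the 20 genes known as paternally expressed 14 could be tested, and of the 15 known as maternally expressed 7.

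In bulk libraries, fewer cells that express a gene and less RNA per cell cannot be told apart.

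**Figure D1:**
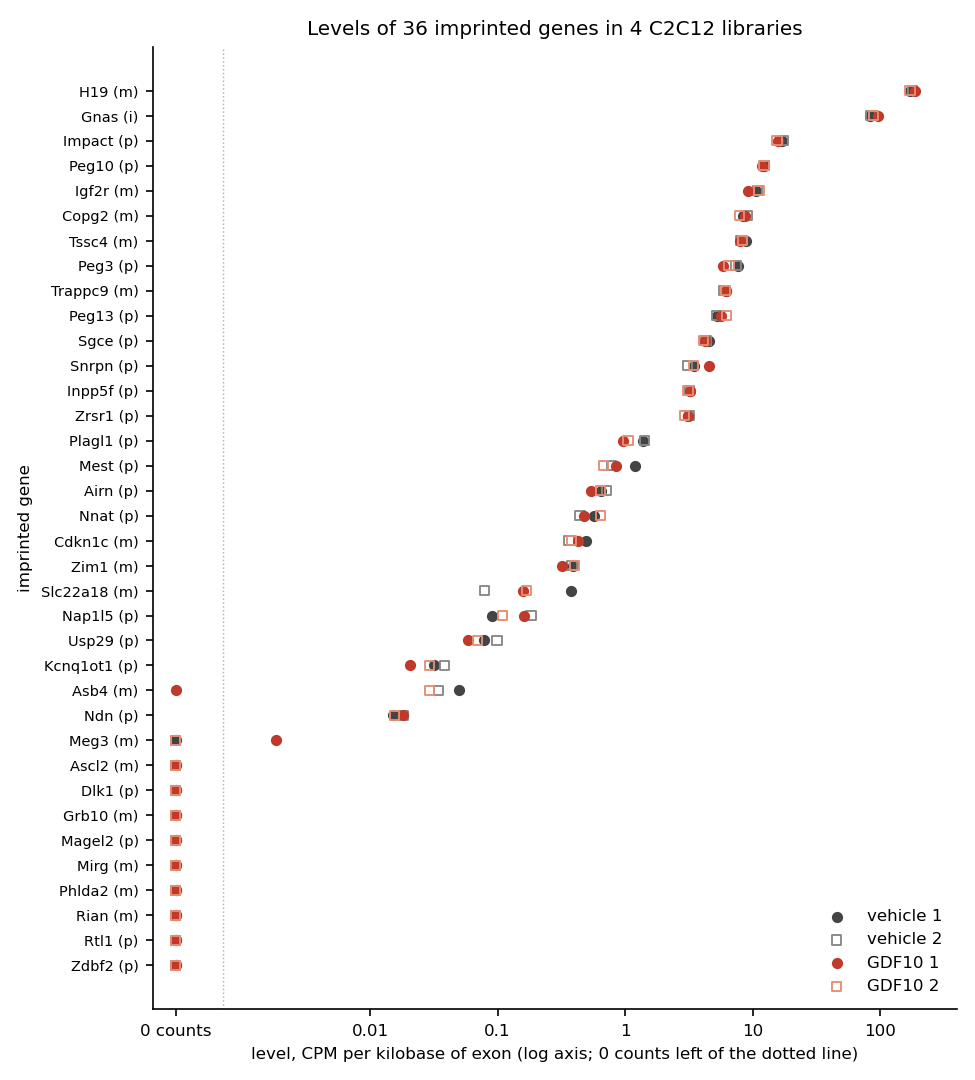
Level of each of the 36 imprinted genes in CPM per kilobase of exon on a log axis, with a point for each of the 4 libraries and 0 counts left of the dotted line. Letters after the names mark genes known as maternally (m) or paternally (p) expressed or dependent on the transcript (i), and the genes run from H19 at 177 down to 9 genes with no count in any library.

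H19, the maternally expressed noncoding RNA known from fetal tissues and from muscle, had the highest level per length of the 36. It is ENSMUSG00000000031 on chromosome 7, 142575529 to 142578143 (mm10), annotated as a lincRNA with 2.46 kb of exon. It stood at 419 and 439 CPM in the vehicle libraries and at 465 and 422 CPM in the GDF10 libraries. The groups overlapped, with GDF10 replicate 2 between the vehicle libraries. At 177 CPM per kilobase H19 was above 98.0% of the 15467 genes tested. Igf2, its growth factor neighbour, which is known to be read from the other parental copy, stood at 0.364 CPM per kilobase with 57, 83, 59 and 69 counts. The ratio of H19 to Igf2 per kilobase was 612 and 365 with vehicle and 550 and 496 with GDF10.

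Gnas, the gene of the stimulatory G protein alpha subunit, whose alternative first exons are imprinted in different directions, had most CPM of the 36. It stood at 931 and 936 CPM with vehicle and at 1072 and 985 CPM with GDF10. Both GDF10 libraries were above both vehicle libraries. Counts per gene add up all its transcripts. The antisense transcript Nespas, which shares 988 exon bases with Gnas on the opposite strand, had 9, 11, 16 and 28 counts.

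Impact, which restrains the kinase GCN2, stood at 86.7 and 89.5 CPM with vehicle and 81.5 and 79.5 with GDF10, a level of 16.4 CPM per kilobase. Igf2r, the receptor that clears IGF2 and carries mannose 6-phosphate cargo, stood at 99.2, 102, 85.0 and 104 CPM in vehicle 1, vehicle 2, GDF10 1 and GDF10 2, or 10.5 CPM per kilobase. GDF10 replicate 1 was thus the lowest and GDF10 replicate 2 the highest library for Igf2r. Airn, the noncoding RNA that starts within Igf2r, is known to silence it on the paternal copy in many tissues. Its counts gave 2.32, 2.57, 1.93 and 2.32 CPM. Airn lies on the opposite strand, and no source tells whether strand was used in counting. Unspliced Igf2r RNA could thus be counted as Airn, and the split between them is uncertain. Igf2r was 15.4 to 17.3 times as high as Airn per kilobase of annotated exon in the 4 libraries. Airn is known to remain largely unspliced, so its annotated 3.60 kb of exon covers only part of the RNA.

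In the domain of Peg10 and Sgce on chromosome 6 both divergent genes were present. Peg10, a gene derived from a retrotransposon and needed for the placenta, stood at 81.6, 83.0, 78.7 and 81.7 CPM, and Sgce, which encodes epsilon-sarcoglycan of the dystrophin complex, at 48.1, 45.7, 44.7 and 43.6 CPM. Peg10 was 2.70 to 2.98 times as high as Sgce per kilobase in every library. Asb4, farther along the same chromosome, had 7, 4, 0 and 4 counts. Of these 3 genes, 2 were thus well counted and 1 was near the limit of detection. Between Peg10 and Asb4, Pon3 and Pon2, other imprinted genes named after their values were seen, averaged 15.5 and 32.2 CPM. Ppp1r9a, another imprinted gene of that interval, had 5, 2, 2 and 2 counts.

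In the domain of Mest on chromosome 6 Copg2 had the higher level. Mest, a hydrolase family gene used as a marker of imprinting, stood at 4.73, 3.07, 3.33 and 2.67 CPM, with vehicle replicate 1 above the other libraries. Its tail-to-tail neighbour Copg2, a coatomer subunit gene, stood at 43.3, 46.6, 44.9 and 40.2 CPM. They share 912 exon bases on opposite strands. Copg2 had 1253% of the counts of Mest, and since no source tells whether strand was used in counting, the split between them is uncertain. Per kilobase Copg2 was 7.06 times as high as Mest in vehicle replicate 1 and 10.4 to 11.7 times in the other libraries.

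The Peg3 domain on chromosome 7 gave a strong gene beside weak ones. Peg3, a zinc finger gene known in muscle precursors, stood at 102 and 98.8 CPM with vehicle and at 78.7 and 87.2 CPM with GDF10. Usp29, a deubiquitinase gene read in the other direction, stood at 1.43, 1.79, 1.07 and 1.26 CPM. In GENCODE its start lies across the 146 bases printed above. Per kilobase Peg3 was 74.9 to 100.1 times as high as Usp29 in the 4 libraries. Zim1, a maternally expressed zinc finger gene of the same domain, stood at 3.13, 3.11, 2.60 and 3.24 CPM, and Peg3 was 16.3 to 19.7 times as high per kilobase.

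Peg13, a noncoding RNA lying within an intron of Trappc9 on chromosome 15, and its host were close in level. Peg13 stood at 24.7, 24.8, 26.9 and 29.4 CPM, and Trappc9, a subunit of the TRAPPII vesicle tethering complex, at 49.1, 46.7, 49.1 and 48.6 CPM. The ratio of Trappc9 to Peg13 per kilobase ran from 0.986 to 1.18. Peg13 is annotated on the same strand as Trappc9 and shares no exon bases with it, but unspliced Trappc9 RNA would also be counted there.

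In the domain of Kcnq1ot1 on chromosome 7 the listed genes other than Tssc4 had few or no counts. Kcnq1ot1, the noncoding RNA known to silence its neighbours on the paternal copy, had 105, 106, 58 and 95 counts, or 1.93 to 3.58 CPM spread over 93.1 kb. Cdkn1c, the cell cycle inhibitor p57, had 36, 22, 26 and 27 counts, and the transporter-like gene Slc22a18 23, 4, 8 and 10. Phlda2 and Ascl2, known for the placenta, had 0 in all libraries. Tssc4, a splicing factor assembly gene, differed from these with 16.4, 14.8, 14.6 and 15.4 CPM. Whether Tssc4 or the genes named next were imprinted in these cells cannot be read from the counts. Some other genes of the same stretch known as imprinted were well counted: Cd81 averaged 231 CPM, Osbpl5 83.6 CPM and Nap1l4, 10.4 kb from Phlda2, 161 CPM. Others were not: Tspan32 averaged 2.47 CPM, and Kcnq1, Ins2 and Th had 10, 2 and 0 counts over all libraries.

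In the Prader-Willi domain Snrpn, which encodes a spliceosomal Sm protein found mainly in brain, stood at 7.44 and 6.65 CPM with vehicle and 9.87 and 7.45 with GDF10. Ndn, a MAGE family gene known in satellite cells, had 2 counts in each library, and Magel2 had 0 in all. Peg12, another imprinted gene of that domain, named after its values were seen, had 145, 104, 110 and 154 counts 80.2 kb from Magel2. Mkrn3, which lies between Magel2 and Peg12, had 29, 19, 24 and 23 counts. Counts near 0 and above 1 CPM thus lay side by side in the domain.

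**Figure D2:**
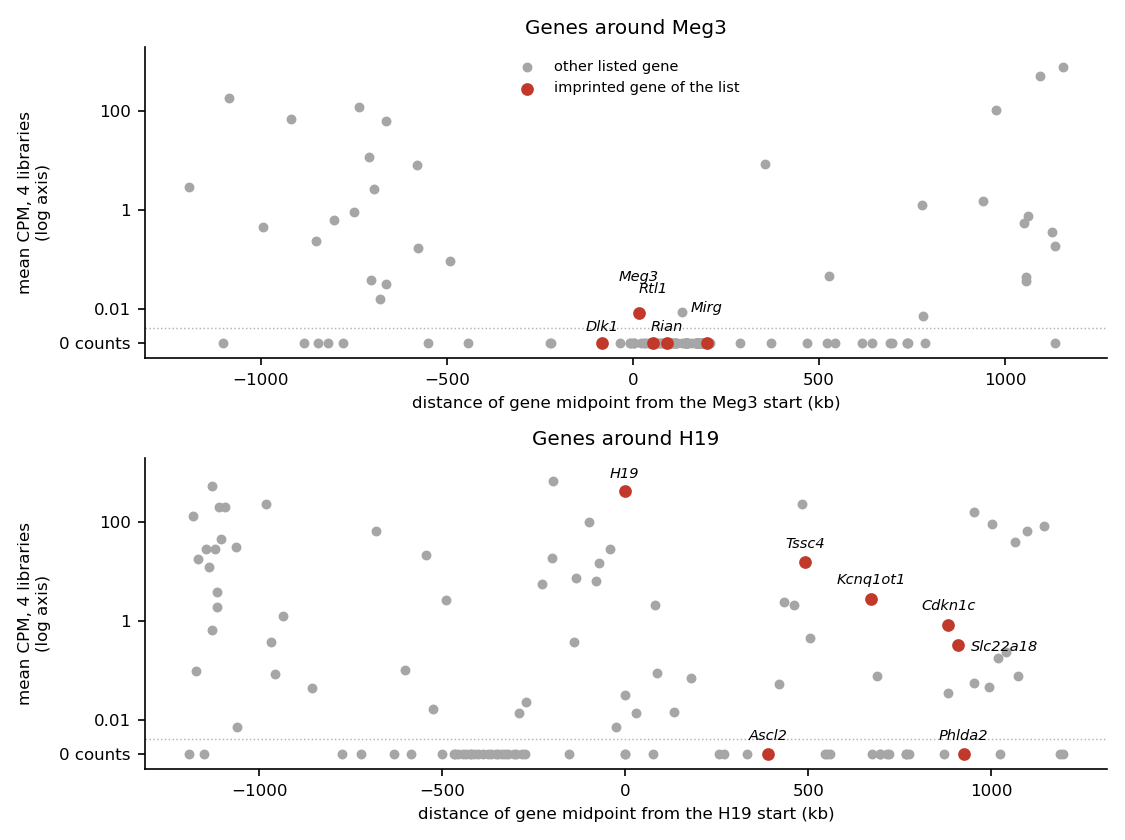
Mean CPM over the 4 libraries (log axis) of every listed gene within 1.2 Mb of Meg3 (upper panel) and H19 (lower panel), by distance of the gene's midpoint from the start in kb; red points are imprinted genes of the list, and genes below the dotted line had 0 counts. Around Meg3 the 5 members lie at or next to 0 with counted genes on both sides, while around H19 silent and counted genes alternate.

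The imprinted genes of the Dlk1-Dio3 domain on chromosome 12 had next to no counts. Dlk1, a transmembrane inhibitor of Notch and of differentiation, the retrotransposon-derived Rtl1 and the maternally expressed noncoding RNAs Rian and Mirg had 0 counts in all 4 libraries, and Meg3 had 0, 0, 1 and 0. Between the start of Dlk1 and the end of Mirg, 109452823 to 109749460, the table lists 104 genes, among them 66 microRNA and 23 snoRNA genes, and 102 of them had no count in any library. Meg3 and the gene model Gm37899 had 1 count each. Dio3, at the far end, had 0 as well. The nearest genes with at least 1 CPM were Wdr25, 424 kb before Dlk1, at 8.33 CPM, and Gm3379, 145 kb after Mirg, at 8.51 CPM. Gm3379, annotated as a processed pseudogene, lies between Mirg and Dio3 and held 1101 of the 1109 counts found from Dlk1 to Dio3. Counts of microRNA and snoRNA genes depend on the library preparation, and a 0 there does not bear on the mature small RNAs.

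Grb10 and Zdbf2, which lie alone or in small domains, were also without a count. Grb10 encodes an adaptor that restrains insulin and IGF receptor signalling, and its 9.09 kb of exon on chromosome 11 had 0 counts in all 4 libraries. Its nearest neighbours with at least 1 CPM were Fignl1 at 37.7 CPM, 122 kb away, and Cobl at 19.5 CPM, 198 kb away. Ddc, another imprinted gene named after its values were seen, lies between Fignl1 and Grb10 and had 6, 2, 0 and 6 counts. Zdbf2 on chromosome 1 had 0 counts as well, 92.8 kb from Eef1b2 at 352 CPM. Counted genes thus lay 50.1 to 198 kb away, with hardly counted or uncounted ones nearer. Grb10 and Zdbf2 themselves stayed under the limit of 0.0839 to 0.101 CPM.

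The remaining single-gene loci lay between. Inpp5f, an inositol phosphatase gene, had 966, 792, 811 and 903 counts, 26.7 CPM on average, and its groups overlapped. Zrsr1, a retrogene of a splicing factor that lies within Commd1, had 499, 427, 421 and 459 counts, 13.9 CPM on average. It shares 412 exon bases on the opposite strand with Commd1, which had 294% of its counts, so that this split is uncertain too. Nnat, a small membrane protein gene, had 37, 24, 26 and 41 counts. Plagl1, a zinc finger transcription factor that inhibits growth and is known to regulate other imprinted genes, stood at 10.8 and 11.1 CPM with vehicle and 7.47 and 8.23 with GDF10.

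The comparison of GDF10 with vehicle asked whether any of these genes differ after 6 h. None of the 22 tested imprinted genes passed the test. The lowest values were those of Plagl1, Kcnq1ot1, Usp29, Mest and Peg3, and the highest those of Snrpn and Peg13. All 7 are known as paternally expressed, as are 14 of the 22. In edgeR's quasi-likelihood test 0 of 22 passed a Benjamini-Hochberg adjusted p of 0.05 over all 15467 genes, where 25 genes or 0.162% passed, and the smallest adjusted p of the 22 was 0.801. The count was also 0 with DESeq2 and limma-voom. An unadjusted p under 0.05 was reached by 2 of the 22, Plagl1 and Peg3, both lower, beside 3.49% of all genes lower and 5.94% in either direction. None of the 22 reached it with a higher value, beside 2.44% of all genes. Which members were under it changed with the library left out, in fits with a lone library in a group. Over these fits the log2 fold change ran from −0.55 to −0.41 for Plagl1 and from −0.35 to −0.20 for Peg3. With the trend of each library over exon length removed, the 2 were Plagl1 and Gnas.

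**Figure D3:**
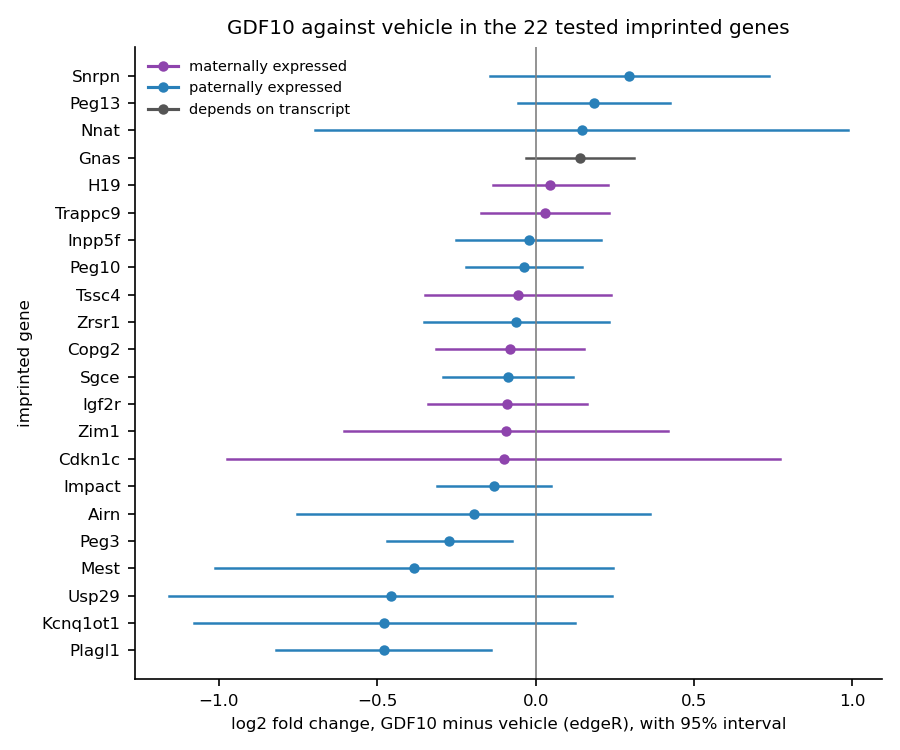
Log2 fold change of GDF10 against vehicle with its 95% interval for the 22 tested imprinted genes, ordered by value and coloured by the parental copy known to be expressed. Of the 22 intervals, those of Plagl1 and Peg3 leave out 0 before adjustment for the number of genes tested.

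Plagl1 averaged 10.95 ± 0.176 CPM with vehicle and 7.85 ± 0.537 with GDF10 (mean ± SD, n = 2 per group). Its log2 fold change was −0.48 with a standard error of 0.14 and a 95% interval of −0.82 to −0.14, and both GDF10 libraries were below both vehicle libraries. Its adjusted p was 0.801 in edgeR. Peg3 averaged 100.2 ± 1.97 CPM with vehicle and 82.9 ± 5.98 CPM with GDF10. Its log2 fold change was −0.27 with a standard error of 0.08 and a 95% interval of −0.47 to −0.08, again with separated groups. Its adjusted p was 0.815 in edgeR. Both differences are larger than the spread between these libraries and neither passes the adjustment over all genes.

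Other members lay closer to 0 or had wide intervals. H19 had a log2 fold change of 0.05 with a 95% interval of −0.14 to 0.23. Igf2r had one of −0.09 (−0.34 to 0.16), Peg10 −0.04 (−0.22 to 0.14) and Gnas 0.14 (−0.03 to 0.31). Kcnq1ot1 had one of −0.48, the same to 2 decimals as Plagl1, but with few counts its interval ran from −1.08 to 0.12. It was −0.26 leaving out GDF10 replicate 1, −0.75 leaving out GDF10 replicate 2 and −0.15 with the exon length trend removed. Mest, at −0.38, was at −0.036 leaving out vehicle replicate 1, −0.66 leaving out vehicle replicate 2 and −0.23 leaving out GDF10 replicate 2. Summed with Copg2, which holds most counts of the pair, the value was −0.10, beside −0.08 for Copg2 alone. Usp29, at −0.46, was at −0.29 leaving out vehicle replicate 2 and at −0.62 leaving out vehicle replicate 1. It was at −0.35 leaving out GDF10 replicate 1, −0.59 leaving out GDF10 replicate 2 and −0.28 with the trend removed. Cdkn1c and Nnat, with about 1 CPM, had intervals of −0.97 to 0.77 and −0.70 to 0.99. Depth limits these low genes, and for them differences inside those intervals were not detectable.

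**Figure D4:**
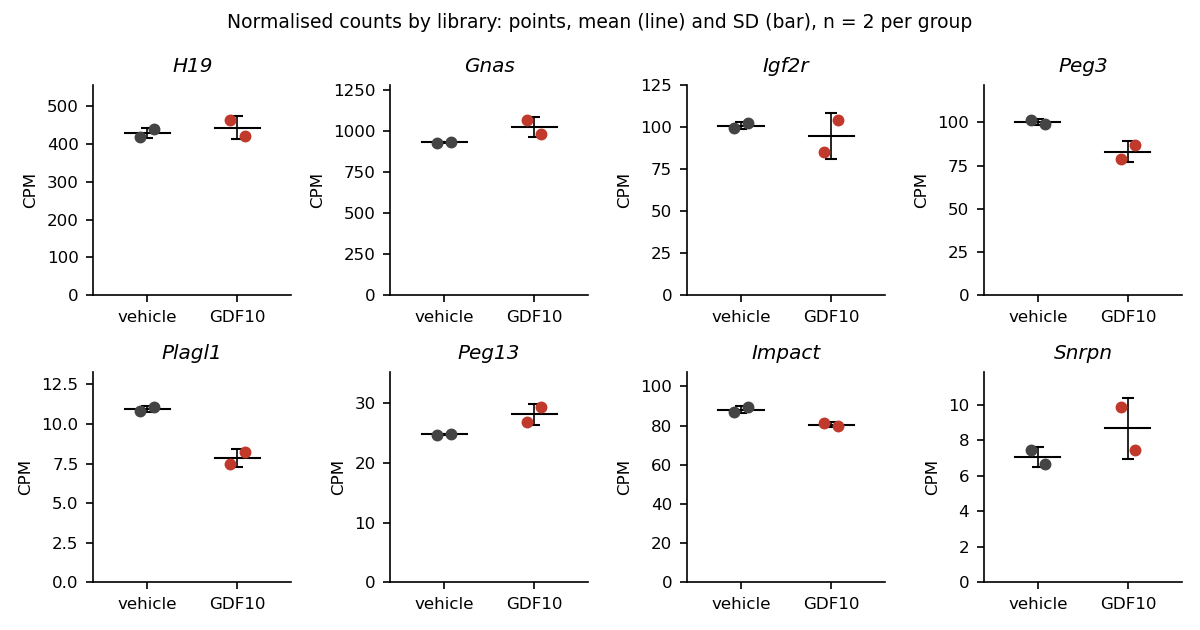
CPM of 8 imprinted genes in each library (points), with the group mean (line) and SD (bar), n = 2 per group, on axes that start at 0. Plagl1 and Peg3 show separated groups with GDF10 lower, Gnas and Peg13 separated groups with GDF10 higher, and H19 and Igf2r overlap.

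As a group the 22 genes had a median log2 fold change of −0.08, beside 0.0029 over all genes tested. Leaving out a library gave −0.084 to −0.050, the latter without vehicle replicate 1. The value was below 0 in 16 of the 22, or 72.7%, beside 49.2% of all genes. Both GDF10 libraries were below both vehicle libraries in 6 of the 22, beside 19.4% of all genes, and above them in 3, beside 18.8%. The 6 were Plagl1, Peg3, Kcnq1ot1, Usp29, Impact and Sgce, and the 3 were Gnas, Peg13 and Snrpn. All of these but Gnas are known as paternally expressed. The median was −0.11 for the 14 paternally expressed genes and −0.08 for the 7 maternally expressed ones, and the difference between them was not tested.

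Exon length was read beside this group shift, and its part in the shift was not tested. With all genes cut into 4 equal classes by exon length, 11 of the 22 lay in the longest class, at 6186 bases or more. The median log2 fold change of that whole class was −0.08, against 0.07 in the shortest. Across 15467 genes, which are not independent replicates, the deviation of a library from the mean of all 4 had a Spearman correlation with exon length of −0.34 in GDF10 replicate 1 and of 0.13, 0.22 and 0.09 in vehicle 1, vehicle 2 and GDF10 2. With each library's length trend removed, an alternative chosen after seeing the data, the median of the 22 was −0.04, Peg3 stood at −0.15 and Plagl1 at −0.41. Leaving out GDF10 replicate 1, the log2 fold change was −0.20 for Peg3 and −0.41 for Plagl1, and leaving out GDF10 replicate 2 it was −0.35 for Peg3, with an adjusted p of 0.0902 in edgeR, and −0.55 for Plagl1.

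Markers of other cells and of differentiation were read beside these values. The summed level of 5 differentiation markers was 43.7 and 47.9 CPM with vehicle and 52.9 and 49.7 CPM with GDF10. Of the 5, Myog was above both vehicle libraries in both GDF10 libraries, Pvalb, with 7, 5, 3 and 0 counts, was below, and 3 overlapped. The sum of 6 myoblast markers, mostly Des and Itga7, was 1888 and 1867 CPM against 1937 and 1925 CPM. Of the 6, Des and Myod1 were higher in both GDF10 libraries than in either vehicle library. Myf5 was lower, at 25.1 and 26.9 against 22.7 and 23.1 CPM, and 3 were not separated. Over all genes tested, 18.8% had both GDF10 libraries above both vehicle libraries and 19.4% had both below. The 2 epithelial markers summed to 3.27 and 4.76 CPM against 5.94 and 6.14 CPM, all of it Krt8. Sums of the fibroblast, adipocyte, neuron, leukocyte and endothelial markers overlapped between the groups, and both placental markers had 0 counts. Their part in the values of the imprinted genes was not tested.

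The same comparison was read for 44 other imprinted genes and for 22 genes known to set, keep or remove DNA methylation and other marks of imprinted domains. Of the other imprinted genes 25 were tested and 0 passed with edgeR, DESeq2 or limma-voom. A single gene was under an unadjusted p of 0.05, Chrac1 of the chromatin accessibility complex, with a log2 fold change of 0.28. The 5 with most CPM were Ago2, Cd81, H13, Nap1l4 and Osbpl5, at 233, 231, 179, 161 and 83.6 CPM on average, with log2 fold changes of −0.20, 0.14, 0.05, 0.05 and 0.04. Igf2 had one of −0.15 (95% interval −0.89 to 0.59). Their median was 0.02, and 10 of the 44 had no count in any library.

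The list of 22 mixes opposite roles: it holds maintenance factors, the methyltransferases that set methylation, and Tet1, Tet2 and Tet3, which oxidise it. Of the 22, 19 were tested and 0 passed with edgeR, DESeq2 or limma-voom, with a median log2 fold change of −0.19. Trim28, the corepressor recruited by KRAB zinc finger proteins, averaged 396 CPM, Uhrf1, which brings DNMT1 to newly copied DNA, 247 CPM, and Dnmt1, the maintenance methyltransferase, 212 CPM. Zfp57, the zinc finger protein that protects methylated control regions in embryonic cells, had 695, 637, 521 and 489 counts, with both GDF10 libraries lower (log2 fold change −0.38, adjusted p = 0.825 in edgeR). An unadjusted p under 0.05 in edgeR was reached by 5, all lower, beside 3.49% of all genes: Zfp57, Hells at −0.40, Tet2 at −0.38, Arid4b at −0.38 and Smchd1 at −0.30, named after their values were seen. With the exon length trend removed 2 of them, Hells and Zfp57, were under it. Which genes were under it also changed with the library left out. Leaving out GDF10 replicate 2, Smchd1 and Tet3 stood at −0.44 and −0.53, beside −0.30 for each with all 4 libraries. Leaving out GDF10 replicate 1 they stood at −0.17 and −0.10, and with the exon length trend removed at −0.13 and −0.16. The part of exon length in these values was not tested. Dnmt3l and Dppa3 had 2 counts each over the 4 libraries, and Ctcfl had 0.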

How the data were processed

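RNA of 4 libraries was sequenced, and the authors deposited raw counts, whole numbers per Ensembl gene with no normalization. The submitters' processing notes name HISAT2 2.0, StringTie 1.3.3b, Trimmomatic 0.36, FastQC 0.11.2, bedtools 2.26.0, DESeq2 1.12.4 and mm10, without roles. How reads were counted, and whether by strand, is not stated there or in the labels. GENCODE release M21 held 51633 of the 51826 identifiers and supplied symbols, positions and exon lengths. The columns named Con were read as the vehicle samples of that number. The members and lists were chosen with earlier results of these data known. Members with a mean of at least 1 CPM were given with values in every library and the others by counts, the other imprinted genes and the genes of imprinting marks by the highest mean CPM. Genes kept by filterByExpr (15467, holding 99.93% of counts) were scaled by TMM and tested with edgeR 4.0.16 in R 4.3.3 (robust glmQLFit, glmQLFTest, no covariates), with Benjamini-Hochberg adjustment over all of them and a threshold of 0.05. Each standard error was derived from the log2 fold change and F. Levels of different genes were compared as CPM per kilobase of merged exons. The fit was also run on simulated counts drawn from its own dispersions, with changes only in genes of higher level. These counts held no exon length trend, so the run does not cover the low members or that trend. Alternatives were DESeq2 1.42.0, limma-voom (limma 3.58.1), other scalings, filters and dispersions, a replicate block, leaving out each library, summing genes that share exon bases and, chosen after seeing the data, removing the exon length trend of each library (loess, span 0.3) before limma. No label says that the replicates came from separate cultures beyond the word biological, and p-values cover the spread between these samples, which may be technical.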

Additional observations from a re-analysis of the deposited data

How the results depend on the processing

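Under the 14 alternatives 0 of the tested imprinted genes passed. These alternatives gave 307 values listed by gene, sums over genes sharing exon bases included. Of the 307, 13, in 11 genes, had the opposite sign to the value reported, and 0 of them were called. Leaving out a library gave log2 fold changes of −0.30 to 0.14 for Cdkn1c, −0.027 to 0.12 for H19, −0.24 to 0.050 for Igf2r, −0.055 to 0.0095 for Inpp5f, −0.094 to 0.34 for Nnat, −0.0080 to 0.065 for Trappc9, −0.13 to 0.022 for Tssc4 and −0.26 to 0.054 for Zim1. Removing the exon length trend gave 0.015 for Peg10, 0.015 for Sgce and 0.054 for Inpp5f, and summing Zrsr1 with Commd1 gave 0.13. Commd1 holds most counts of that sum, so 0.13 is not a value of Zrsr1 alone. Over all genes 25 were called, against 56 with DESeq2, 11 with limma-voom, 9 with non-robust dispersions and 27 to 224 with a library left out. The 27 were called leaving out vehicle replicate 1, 44 leaving out vehicle replicate 2, 112 leaving out GDF10 replicate 1 and 224 leaving out GDF10 replicate 2. Of the 22 genes that set, keep or remove imprinting marks 0 to 2 passed with a library left out, the 2 leaving out GDF10 replicate 2. These fits assume that the lone library varies like the other group, and the cause was not tested. No label ties equal replicate numbers to a shared culture, and deviations of libraries with the same number correlated at 0.070 over genes. With the replicate block 23 genes passed, 0 of them imprinted genes of the list. Members near 1 CPM had the fewest counts of those tested and intervals of −0.97 to 0.77 (Cdkn1c) and −0.70 to 0.99 (Nnat).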
